A study of Homo sapiens with 18 samples.

Results

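The CDK inhibitor genes CDKN1A, CDKN1B, CDKN1C, CDKN2A, CDKN2B, CDKN2C and CDKN2D were examined by symbol in the count table of the series, where they make up 7 of 28266 gene rows. They were chosen by symbol and not by a cut on measured values, but with earlier results of these data known. RNA came from IMR90 ER:RAS cells, a human lung fibroblast line that carries oncogenic RAS fused to the hormone-binding part of the oestrogen receptor, delivered in a retroviral vector. All 6 groups share this construct, which 4-hydroxytamoxifen (4OHT) switches on to give oncogene-induced senescence (OIS). The labels give the genotype of every group as WT. Cells received either 4OHT at 100 nM ("senescent") or DMSO ("control"). After 7 days they received DMSO, IMP1088 at 300 nM or DDD86481 at 1.5 µM, and they were harvested after 3 days of that second treatment, on day 10. Both compounds are N-myristoyltransferase inhibitors (NMTi), tested at different doses, so their values are set side by side and were not tested against each other. Each group has 3 libraries of poly(A) RNA.

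CDK inhibitors are small proteins that stop cyclin-dependent kinases from driving the cell cycle. The CIP/KIP family (CDKN1A, CDKN1B and CDKN1C, which encode p21, p27 and p57) binds cyclin-CDK complexes of several kinds, whereas the INK4 family (CDKN2A, CDKN2B, CDKN2C and CDKN2D, which encode p16, p15, p18 and p19) binds CDK4 and CDK6 and keeps RB in the form that holds back E2F. In senescent fibroblasts p21 and p16 are the inhibitors best known for holding the arrest, and p15 is known as a target of TGF-beta. Several of these proteins are controlled by degradation as well as by transcription, and RNA levels do not report on that.

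Library totals ran from 16143716 to 23189950 counts, and all 7 genes passed the filter on low counts. All 11 fibroblast markers were detected. Their summed level was 27849 to 36878 CPM (counts scaled to a common library size) in control DMSO libraries and 34796 to 41276 CPM in control NMTi libraries. In senescent libraries it was 22329 to 23247 CPM with DMSO and 15538 to 16920 CPM with NMTi. Over 4 endothelial markers the sum was 1.17 to 1.73 CPM in control DMSO libraries and 10.3 to 10.7 CPM in senescent DMSO libraries. With NMTi it was 2.82 to 3.97 CPM in control libraries and 5.68 to 9.06 CPM in senescent libraries. Of 6 epithelial markers 2 were at 0 in every library. The summed epithelial level was 75.01 to 109.97 CPM in control DMSO libraries and 33.4 to 38.4 CPM in senescent DMSO libraries. With NMTi this sum was 47.6 to 59.2 CPM in control libraries and 34.6 to 51.1 CPM in senescent libraries. The summed level of 5 immune markers (1 of them undetected) was 15.4 to 20.3 CPM in control DMSO libraries and 119 to 149.95 CPM in senescent DMSO libraries. It was 19.4 to 24.4 CPM in control NMTi libraries. Senescent libraries had 152 to 165 CPM with IMP1088 and 91.9 to 141 CPM with DDD86481. Over 4 smooth muscle markers the sum was 497 to 564 CPM in control DMSO libraries against 105 to 132 CPM in control NMTi libraries, and 96.3 to 110 CPM in senescent DMSO libraries against 29.9 to 38.1 CPM in senescent NMTi libraries. The part of these marker shifts in the results was not tested. In bulk RNA, fewer cells of a type and less RNA per cell cannot be told apart. The labels do not say whether the 3 libraries of a group came from separate cultures. For an expression heatmap with the same treatments and doses, the paper's legend gives n = 3 and defines n as independent experiments. It does not name the libraries. The p-values measure the spread between these libraries.

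Control DMSO replicate 3 stood apart from the other libraries of its group. Over all genes its chi-square per gene was 101.2 and 51.2 against replicates 1 and 2, whereas the other 16 within-group pairs lay between 5.09 and 26.8. It enters the group means behind the results of senescence with DMSO, of NMTi in control cells and of the interactions. All libraries share 1 model, so it also bears on the spread used to test the other comparisons. Those were not refitted without this library alone. Without it the 7 members kept their calls in senescence, with log2 fold changes of 2.50 for CDKN1A, -2.19 for CDKN1B, -2.42 for CDKN1C, 1.22 for CDKN2A, 3.03 for CDKN2B, -3.94 for CDKN2C and 1.46 for CDKN2D. With IMP1088 in control cells it left -0.39 for CDKN2A and -0.50 for CDKN2C, both past the threshold (adjusted p = 0.0138 and 0.0273), and -0.44 for CDKN2D (adjusted p = 0.0906). With DDD86481 in control cells the values were -0.41 for CDKN2A and -0.62 for CDKN2C (adjusted p = 0.0091 and 0.00729) and -0.44 for CDKN2D (adjusted p = 0.0895), so that CDKN2D lost its call with both compounds. The interaction without it was 3.58 and 3.66 for CDKN2C, -1.16 and -1.24 for CDKN2B, 0.80 and 1.17 for CDKN1C, 0.62 and 0.74 for CDKN1B, and -0.56 and -0.47 for CDKN1A, with IMP1088 and DDD86481 in that order. Of these interaction calls that of CDKN1C with IMP1088 was lost (adjusted p = 0.0586). For CDKN2A the interaction was -0.27 and -0.02 and for CDKN2D -0.18 and -0.05, none past the threshold, and those with DDD86481 changed sign.

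On GRCh37, CDKN1A lies on chromosome 6 from 36644237 to 36655114 on the plus strand, CDKN1B on chromosome 12 from 12838432 to 12875303 on the plus strand, and CDKN1C on chromosome 11 from 2904443 to 2907005 on the minus strand. CDKN2A (21967751 to 21995300) and CDKN2B (22002902 to 22009304) are neighbours on the minus strand of chromosome 9. CDKN2C is on chromosome 1 from 51426417 to 51440306 on the plus strand, and CDKN2D on chromosome 19 from 10677136 to 10679735 on the minus strand. CDKN2A has separate first exons for p16 and for ARF, a protein that does not bind CDKs, and a count by symbol merges both. The merged CDKN2A exons overlap CDKN2B-AS1, on the opposite strand, over 15.3% of their bases. CDKN2B-AS1 held 2 to 31 counts in any library, whereas CDKN2A held 925 to 3142. CDKN1A overlaps DINOL over 4.87% of its exonic bases, and DINOL held 0 to 3 counts. In CDKN2C, 20.4% of the merged exonic bases overlap an opposite-strand transcript, ENSG00000290102, which shares no 75-base stretch with the canonical transcript.

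CDKN2A and CDKN2B arose by duplication, and 0.143% of the distinct 75-base sequences of CDKN2A and 0.150% of those of CDKN2B occur in the other gene, so a read there could be counted for either.

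Promoter sequences were taken from RefSeq on GRCh38.p14 as the 250 bases before an annotated start. There were 9 such windows for 6 of the 7 genes, and CDKN1C had none. Printed are those of CDKN1A and CDKN2B, which rose most in senescence, of CDKN2C, which fell most, and of p16, the INK4 protein best known in senescence, with GC boxes (GGGCGG on either strand, the letters that SP1-type factors recognise) in capitals.
CDKN1A, chr6:36678464-36678713, plus strand: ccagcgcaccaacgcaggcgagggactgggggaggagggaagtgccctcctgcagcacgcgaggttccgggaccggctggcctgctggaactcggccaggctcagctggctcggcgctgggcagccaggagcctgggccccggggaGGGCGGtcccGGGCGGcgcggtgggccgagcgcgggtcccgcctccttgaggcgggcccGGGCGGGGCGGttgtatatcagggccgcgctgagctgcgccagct
CDKN2B, chr9:22009306-22009555, minus strand: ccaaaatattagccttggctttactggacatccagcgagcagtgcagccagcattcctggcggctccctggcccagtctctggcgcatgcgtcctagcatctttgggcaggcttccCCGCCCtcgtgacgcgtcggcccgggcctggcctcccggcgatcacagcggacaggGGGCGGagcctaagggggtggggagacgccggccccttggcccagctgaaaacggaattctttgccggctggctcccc
CDKN2A, start of p16, chr9:21974858-21975107, minus strand: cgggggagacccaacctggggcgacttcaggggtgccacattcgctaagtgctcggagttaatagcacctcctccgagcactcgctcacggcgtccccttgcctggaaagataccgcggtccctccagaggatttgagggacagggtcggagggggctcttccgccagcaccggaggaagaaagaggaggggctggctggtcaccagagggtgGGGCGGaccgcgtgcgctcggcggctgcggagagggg
CDKN2C, start of the canonical transcript, chr1:50969995-50970244, plus strand: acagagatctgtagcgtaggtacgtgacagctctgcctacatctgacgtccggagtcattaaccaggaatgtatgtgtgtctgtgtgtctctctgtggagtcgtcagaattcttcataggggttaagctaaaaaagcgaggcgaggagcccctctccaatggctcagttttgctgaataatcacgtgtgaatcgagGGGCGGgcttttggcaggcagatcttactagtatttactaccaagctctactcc
The CDKN1A window held 4 GC boxes, of which the last pair overlap, at a GC content of 76.4%. The CDKN2B window held 2 at 66.4%, and the p16 window of CDKN2A held 1 at 66.8%. The canonical CDKN2C window held 1 at 48.8%, and a second CDKN2C start lies in a window with 5 at 77.2%. Of 35116 RefSeq windows of the same length, 42.6% held a GC box. None of the 9 windows held an E2F motif (TTTGGCGC, TTTCGCGC, TTTCCCGC or TTTGCCGC, in 2.79% of all windows) or a FOXO motif (TGTTTAC, in 2.98%), on either strand. The E box CACGTG, in 6.34% of all windows, occurred once in each of 2 CDKN2C windows, including the canonical one. These are matches of letters and not measured binding, and the counts do not tell starts of 1 gene apart.

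Senescent cells with DMSO had more RNA of 4 of the inhibitors and less of the other 3. CDKN1A, CDKN2A, CDKN2B and CDKN2D rose and CDKN1B, CDKN1C and CDKN2C fell, all 7 passing the threshold (adjusted p under 0.05, edgeR's quasi-likelihood test) in a comparison where 68.5% of 14341 genes did. NMTi in senescent cells moved all 7 as well. With either compound CDKN1A, CDKN2A, CDKN2B and CDKN2D fell and CDKN1B, CDKN1C and CDKN2C rose, where 44.4% of genes passed with IMP1088 (20.6% higher and 23.9% lower) and 43.2% with DDD86481 (20.1% higher and 23.1% lower). These comparisons are made against the senescent DMSO libraries that the comparison with control cells also uses, so the opposite signs are not independent of each other. In control cells 3 of 7 passed with each compound, CDKN2A, CDKN2C and CDKN2D, all of them lower, where 33.7% of genes passed with IMP1088 and 36.6% with DDD86481.

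**Figure D1:**
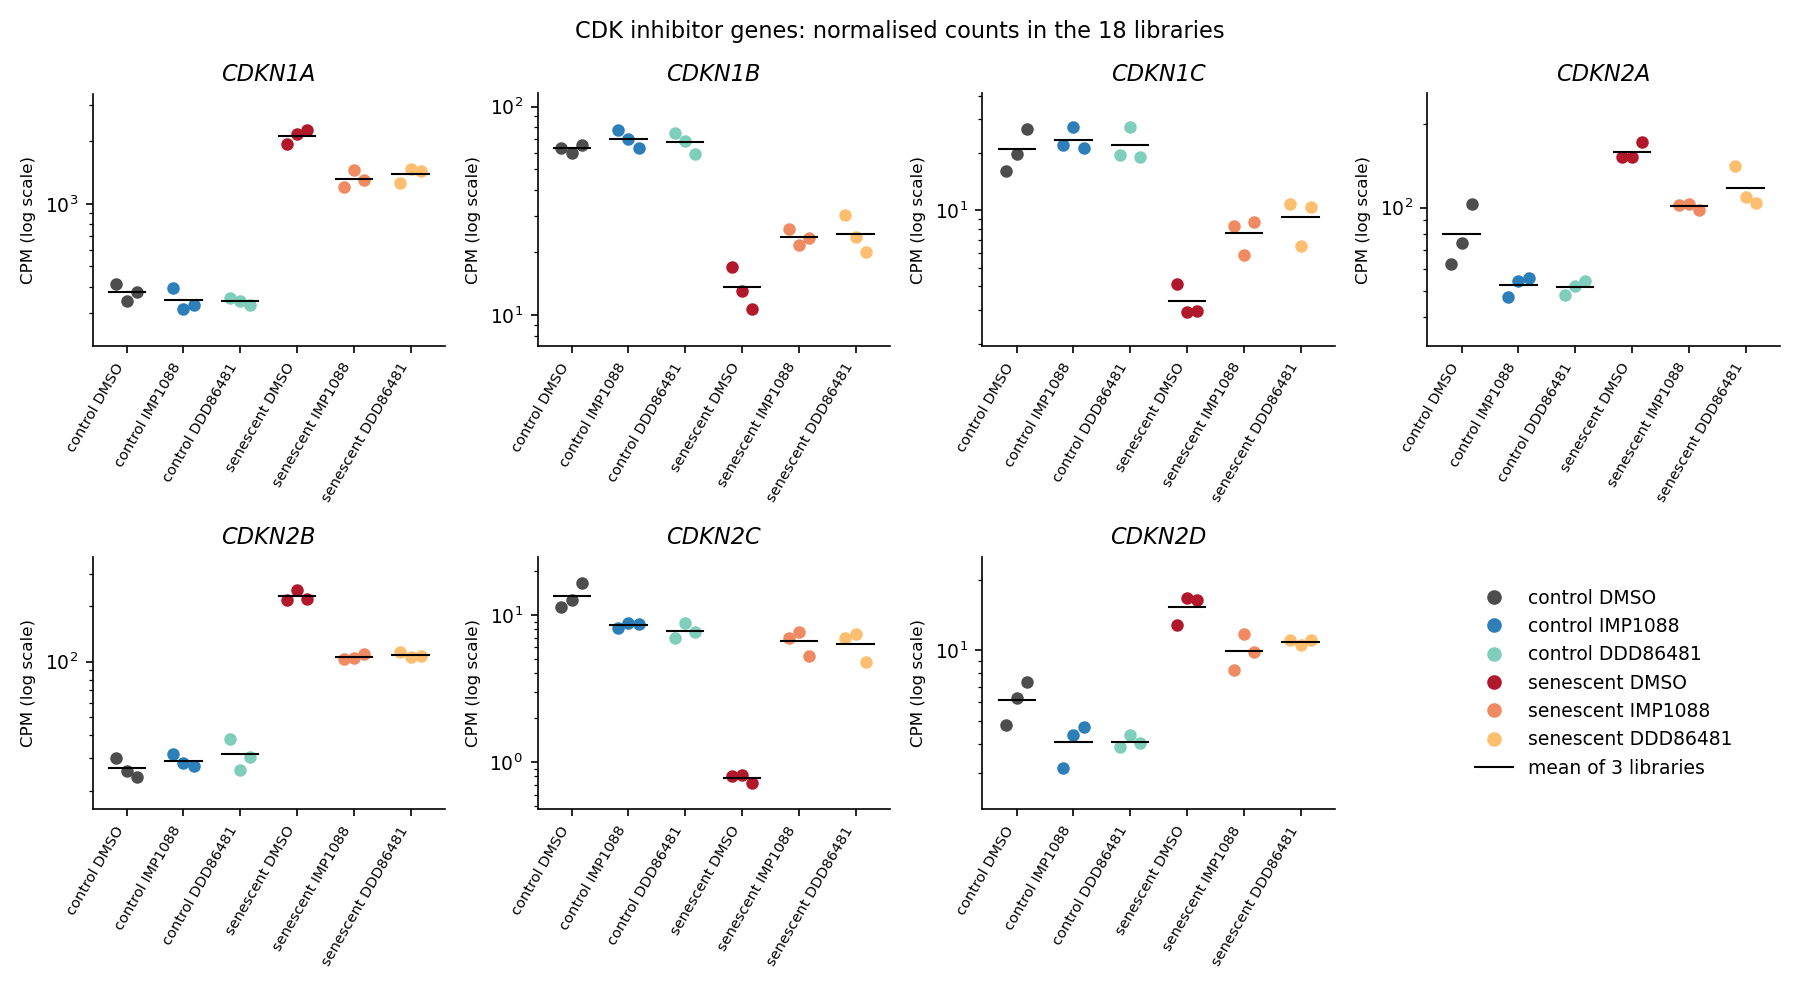
CPM (log scale, a separate axis for each gene) of the 7 CDK inhibitor genes in each of the 18 libraries, by group, with a line at the mean of 3 libraries. The senescent DMSO libraries lie apart from the other groups for every gene, highest for CDKN1A, CDKN2A, CDKN2B and CDKN2D and lowest for CDKN1B, CDKN1C and CDKN2C, and CDKN2C drops to 0.714 to 0.809 CPM there.

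CDKN1A encodes p21, an inhibitor of CDK2 complexes. It had 410, 341 and 378 CPM in replicates 1 to 3 of control cells with DMSO and 1952, 2160 and 2265 CPM in senescent cells with DMSO. The groups were far apart, with a log2 fold change of 2.50 ± 0.11 (SE, adjusted p = 7.88e-14), or 5.65-fold. With IMP1088 senescent cells had 1200, 1451 and 1308 CPM, and with DDD86481 they had 1255, 1474 and 1437 CPM. Each of these libraries was below every senescent DMSO library and above every control library. The fall was -0.69 ± 0.11 with IMP1088 (adjusted p = 3.06e-05) and -0.61 ± 0.11 with DDD86481 (adjusted p = 0.000112). In control cells CDKN1A had 396, 311 and 325 CPM with IMP1088 and 354, 340 and 326 CPM with DDD86481, ranges that overlapped those with DMSO. The log2 differences there were -0.13 (95% interval -0.36 to 0.09) and -0.15 (-0.37 to 0.08), and neither passed the test.

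CDKN1B encodes p27, which restrains CDK2 in quiescent cells and is removed by the SKP2 ubiquitin ligase. It had 63.5, 60.2 and 65.5 CPM in control cells with DMSO and 17.0, 13.1 and 10.7 CPM in senescent cells with DMSO. Every senescent library was below every control library, and the log2 fold change was -2.21 ± 0.16 (adjusted p = 9.58e-11), 4.64-fold lower. Senescent cells had 25.8, 21.7 and 23.4 CPM with IMP1088 and 30.2, 23.7 and 20.1 CPM with DDD86481. These values lay above all senescent DMSO libraries and below all control libraries. CDKN1B rose by 0.80 ± 0.16 with IMP1088 (adjusted p = 0.000324) and by 0.86 ± 0.16 with DDD86481 (adjusted p = 0.000166). In control cells the libraries had 77.1, 70.1 and 63.5 CPM with IMP1088 and 74.4, 68.7 and 58.98 CPM with DDD86481, and the log2 differences of 0.16 (95% interval -0.14 to 0.45) and 0.10 (-0.20 to 0.39) did not pass.

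CDKN1C encodes p57, an imprinted inhibitor of the same family that is expressed from the maternal copy. Its control DMSO libraries spread widely, with 16.002, 19.8 and 26.8 CPM. Senescent DMSO libraries had 4.14, 2.93 and 2.97 CPM, from 67, 47 and 54 reads. This was a log2 fold change of -2.64 ± 0.24 (adjusted p = 5.76e-09), 6.23-fold lower, and larger than the spread in either group. Senescent cells had 8.31, 5.87 and 8.74 CPM with IMP1088 and 10.8, 6.53 and 10.4 CPM with DDD86481, all above the DMSO libraries. Replicate 2 was the lowest of the 3 with both compounds. CDKN1C rose by 1.20 ± 0.25 with IMP1088 (adjusted p = 0.000711) and by 1.46 ± 0.25 with DDD86481 (adjusted p = 9.35e-05). Control cells had 22.0, 27.3 and 21.2 CPM with IMP1088 and 19.4, 27.3 and 19.1 CPM with DDD86481, within or close to the DMSO range. The differences in control cells, 0.18 (95% interval -0.24 to 0.60) and 0.07 (-0.35 to 0.50), did not pass.

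CDKN2A, the locus of p16 and ARF, had 62.4, 74.3 and 103 CPM in control cells with DMSO, the widest spread among its groups. Senescent cells with DMSO had 152, 153 and 173 CPM. All of these were above the control libraries, and CDKN2A was 2.00-fold higher, a log2 fold change of 1.00 ± 0.14 (adjusted p = 2.76e-06). With IMP1088 senescent cells had 102, 103 and 97.9 CPM, and with DDD86481 they had 141, 109 and 104 CPM. Both sets lay below the senescent DMSO libraries, replicate 1 of DDD86481 being the closest to them. CDKN2A fell by 0.66 ± 0.14 on the log2 scale with IMP1088 (adjusted p = 0.000711) and by 0.43 ± 0.14 with DDD86481 (adjusted p = 0.0161). The call with DDD86481 was lost in 3 of 6 fits that left out 1 library, with adjusted p = 0.0707 when replicate 3 of senescent DMSO was dropped, and 0.0679 and 0.0769 when replicates 2 and 3 of senescent DDD86481 were. In control cells CDKN2A had 47.3, 54.2 and 55.4 CPM with IMP1088 and 48.3, 51.8 and 53.98 CPM with DDD86481, every library below the DMSO ones. This was a fall of -0.61 ± 0.14 (adjusted p = 0.00245) and -0.64 ± 0.14 (adjusted p = 0.00171). Control DMSO replicate 3, the highest of its group, carried part of it. Without that library the values were -0.39 (adjusted p = 0.0138) and -0.41 (adjusted p = 0.0091).

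CDKN2B encodes p15, an inhibitor of CDK4 and CDK6 that TGF-beta induces in epithelial cells. It had 29.9, 25.5 and 23.8 CPM in control cells and 215, 246 and 218 CPM in senescent cells, both with DMSO. Among the 7 genes this was the largest rise, at a log2 fold change of 3.10 ± 0.12 (adjusted p = 1.07e-14), or 8.56-fold. Senescent cells had 103, 105 and 110 CPM with IMP1088 and 113, 106 and 108 CPM with DDD86481. The 6 NMTi libraries were tightly grouped, above every control library and below every senescent DMSO library. CDKN2B fell by 1.09 ± 0.11 with IMP1088 (adjusted p = 2.18e-07) and by 1.05 ± 0.11 with DDD86481 (adjusted p = 3.86e-07), 2.13-fold and 2.08-fold. Control cells had 31.7, 28.3 and 27.3 CPM with IMP1088 and 38.2, 25.8 and 30.6 CPM with DDD86481, overlapping the DMSO range. The log2 differences in control cells were 0.14 (95% interval -0.11 to 0.39, adjusted p = 0.390) and 0.26 (0.01 to 0.50, adjusted p = 0.0977). The second was past the threshold without control DMSO replicate 1 (adjusted p = 0.0242) or without control DDD86481 replicate 2 (adjusted p = 0.0204).

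CDKN2C encodes p18, an INK4 protein of proliferating and differentiating cells whose gene is an E2F target. It had 11.4, 12.6 and 16.5 CPM in control cells with DMSO. In senescent cells with DMSO it had 0.803, 0.809 and 0.714 CPM, from 13 reads in each of the 3 libraries. This was the largest difference of the 7 genes, a log2 fold change of -4.11 ± 0.23 (adjusted p = 3.36e-12), 17.3-fold lower, and above the floor of 3 counts. In senescent cells with IMP1088 the level was 6.95, 7.66 and 5.21 CPM (132, 137 and 93 reads), and with DDD86481 it was 6.93, 7.37 and 4.78 CPM (127, 141 and 78 reads). The lowest of these 6 libraries was above every senescent DMSO library by several-fold, and replicate 3 was the lowest with both compounds. CDKN2C rose by 3.08 ± 0.25 with IMP1088 (adjusted p = 8.32e-09) and by 3.04 ± 0.25 with DDD86481 (adjusted p = 1.20e-08), 8.48-fold and 8.20-fold. Control cells moved the other way, with 8.08, 8.82 and 8.60 CPM with IMP1088 and 6.99, 8.80 and 7.66 CPM with DDD86481, all below the DMSO libraries. The fall was -0.66 ± 0.17 (adjusted p = 0.00462) and -0.78 ± 0.17 (adjusted p = 0.00131).

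CDKN2D encodes p19, the INK4 member that blocks CDK4 and CDK6 like the others, and was the least abundant member per length in control cells. It had 4.80, 6.28 and 7.36 CPM (119, 156 and 148 reads) in control cells and 12.8, 16.6 and 16.3 CPM in senescent cells with DMSO. The groups did not overlap, and the log2 fold change was 1.32 ± 0.17 (adjusted p = 8.50e-07), 2.49-fold. Senescent cells had 8.26, 11.7 and 9.87 CPM with IMP1088 and 11.03, 10.6 and 11.1 CPM with DDD86481. These libraries lay below the DMSO ones, the nearest pair being 11.7 and 12.8 CPM. CDKN2D fell by 0.62 ± 0.17 with IMP1088 (adjusted p = 0.00486) and by 0.49 ± 0.17 with DDD86481 (adjusted p = 0.0223). In control cells it had 3.16, 4.36 and 4.71 CPM with IMP1088 and 3.86, 4.37 and 4.02 CPM with DDD86481, below each DMSO library. The fall there was -0.58 ± 0.18 with each compound (adjusted p = 0.0188 and 0.0178).

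The CDKN2D calls with NMTi other than that of IMP1088 in senescent cells rest on single libraries, each being lost in 3 of 6 fits that left 1 out. With DDD86481 in senescent cells the adjusted p was 0.0859 or 0.0791 with replicate 2 or 3 of senescent DMSO dropped, and 0.0639 with replicate 2 of senescent DDD86481 dropped. With IMP1088 in control cells it was 0.112 without control IMP1088 replicate 1, 0.0527 without control DMSO replicate 2 and 0.0906 without control DMSO replicate 3. With DDD86481 in control cells it was 0.0660 without control DDD86481 replicate 1, 0.0895 without control DMSO replicate 3 and 0.0539 without control DDD86481 replicate 3. The direction of each of these differences was the same in all of those fits. A fit of only the libraries compared also lost both control-cell calls of CDKN2D, at adjusted p = 0.0953 with IMP1088 and 0.0589 with DDD86481.

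**Figure D2:**
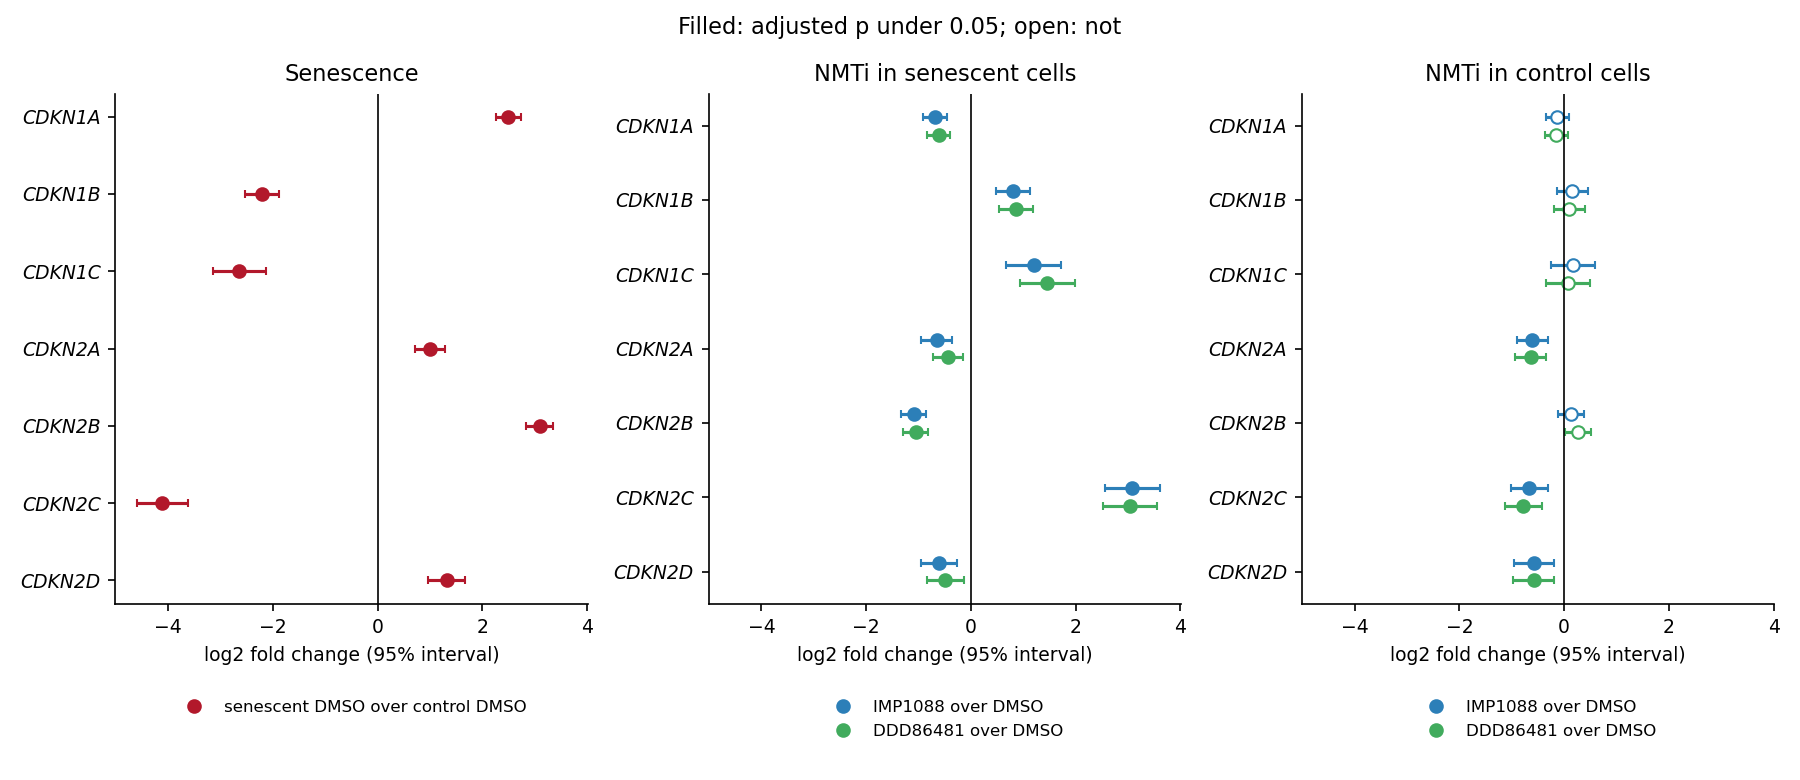
Log2 fold changes with 95% intervals for the 7 genes in senescence (left), with NMTi in senescent cells (middle) and with NMTi in control cells (right). Filled points have an adjusted p under 0.05 in edgeR's quasi-likelihood test and open points do not. CDKN2C spans from -4.11 in senescence to 3.08 with IMP1088 in senescent cells, while the control-cell values of all 7 genes lie between -0.78 and 0.26.

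Counted by separation alone, the ranges of the 2 groups did not overlap for 7 of 7 genes in senescence, where this held for 67.6% of all genes. It held for 7 of 7 with IMP1088 and with DDD86481 in senescent cells, where 61% and 52.6% of all genes were separated. In control cells 3 of 7 were separated with each compound, against 41.4% and 43.4% of all genes. Between senescent and control cells that both had IMP1088 7 of 7 were separated, against 80.9%, and with DDD86481 6 of 7, against 76.1%.

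To ask whether the response to NMTi differed between cell states, the log2 response in control cells was subtracted from that in senescent cells and tested as an interaction. With IMP1088, 5 of 7 members passed, 3 upward and 2 downward, where 26.2% of all genes passed (12.1% and 14.2% by direction). With DDD86481, 5 of 7 passed, again 3 upward and 2 downward, where 30.3% passed (14.4% and 15.9%). The comparisons with the 2 compounds share the DMSO libraries. The CDKN2C difference was 3.75 ± 0.30 with IMP1088 (adjusted p = 4.39e-08) and 3.82 ± 0.30 with DDD86481 (adjusted p = 4.32e-08), since the gene rose in senescent cells and fell in control cells. CDKN2B differed by -1.23 ± 0.16 (adjusted p = 2.44e-05) and -1.31 ± 0.16 (adjusted p = 1.18e-05).

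For CDKN1C the difference was 1.02 ± 0.33 with IMP1088 (adjusted p = 0.0262) and 1.39 ± 0.32 with DDD86481 (adjusted p = 0.00368). CDKN1B gave 0.65 ± 0.21 (adjusted p = 0.0300) and 0.77 ± 0.21 (adjusted p = 0.0109), and CDKN1A gave -0.56 ± 0.15 (adjusted p = 0.0109) and -0.47 ± 0.15 (adjusted p = 0.0260). Not all of these calls held when each of 12 libraries was left out in turn. With IMP1088 the CDKN1A call was lost without control IMP1088 replicate 1 (adjusted p = 0.0560). The CDKN1B call was lost without senescent IMP1088 replicate 1 or 3, senescent DMSO replicate 2 or 3 or control IMP1088 replicate 3, with adjusted p of 0.0508 to 0.0918. The CDKN1C call was lost without those same senescent libraries, control IMP1088 replicate 1 or control DMSO replicate 3, with adjusted p of 0.0505 to 0.0696. With DDD86481 the CDKN1A call was lost without control DDD86481 replicate 1 or 2, senescent DDD86481 replicate 1, control DMSO replicate 2 or senescent DMSO replicate 2 or 3, with adjusted p of 0.0524 to 0.0930, and in a fit of only those groups (0.0533). For CDKN2A the difference was -0.05 (95% interval -0.46 to 0.37, adjusted p = 0.886) with IMP1088 and 0.20 (-0.21 to 0.62, adjusted p = 0.460) with DDD86481. For CDKN2D it was -0.03 (-0.56 to 0.49, adjusted p = 0.937) and 0.10 (-0.42 to 0.61, adjusted p = 0.792). A difference between states of up to about the ends of these intervals was not detectable here.

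**Figure D3:**
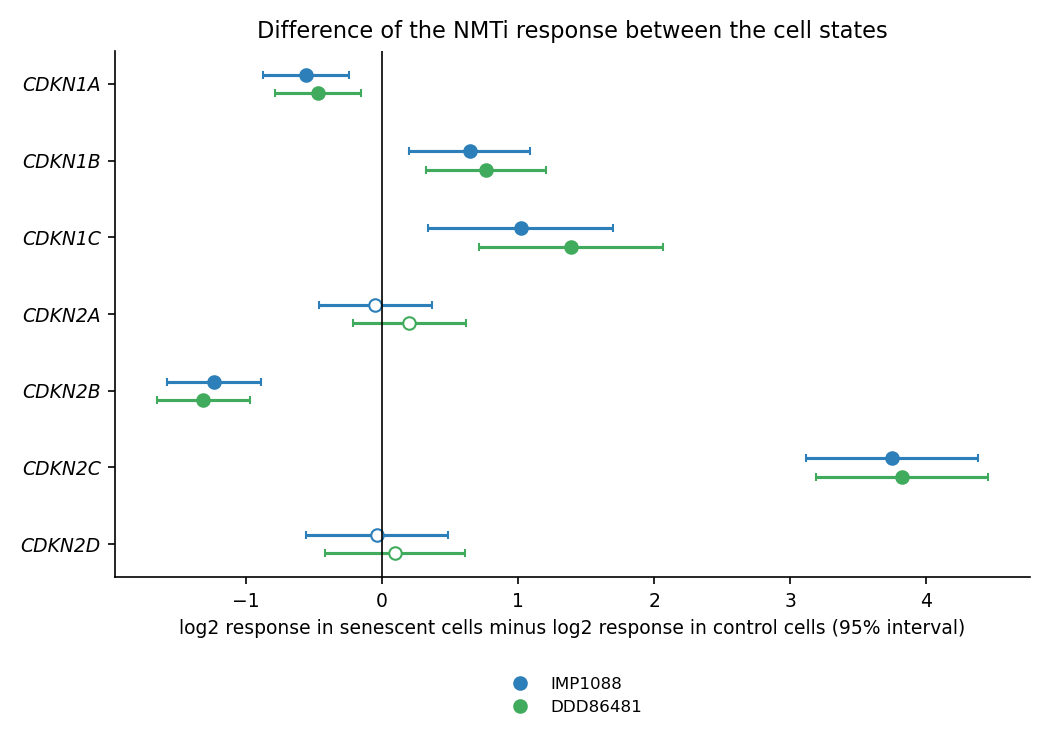
Difference of the NMTi response between senescent and control cells on the log2 scale, with 95% intervals, for the 7 genes and both compounds. Filled points pass an adjusted p of 0.05. CDKN2C is at 3.75 with IMP1088 and 3.82 with DDD86481, CDKN1B and CDKN1C lie above 0, CDKN1A and CDKN2B below it, and the intervals of CDKN2A and CDKN2D include 0.

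Senescent and control cells were also compared where both had received NMTi. With IMP1088 in both states 6 of 7 passed, 4 higher and 2 lower, where 74.1% of all genes passed (36.2% higher and 37.9% lower), a share of members near that of all genes, with log2 fold changes of 1.94 for CDKN1A, -1.57 for CDKN1B, -1.62 for CDKN1C, 0.95 for CDKN2A, 1.87 for CDKN2B and 1.28 for CDKN2D. CDKN2C was the exception, at -0.36 (95% interval -0.73 to 0.00, adjusted p = 0.0694). With DDD86481 in both states 6 passed, 4 higher and 2 lower, where 74% of all genes passed (36.1% higher and 37.9% lower). CDKN2C was at -0.29 (-0.66 to 0.08, adjusted p = 0.149) in that comparison. The interval bounds leave room for a difference of up to about 0.7 on the log2 scale in either comparison. With IMP1088 the CDKN2C difference passed under upper quartile scaling (adjusted p = 0.0291), in a fit of only those groups (adjusted p = 0.0368) and without senescent IMP1088 replicate 2 (adjusted p = 0.0380).

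Levels were set against each other as CPM per kb of canonical transcript. In control cells with DMSO the order was CDKN1A (178 ± 16.3, SD, n = 3), CDKN2A (81.7 ± 21.3), CDKN1B (26.2 ± 1.12), CDKN2C (13.6 ± 2.67), CDKN1C (11.8 ± 3.08), CDKN2B (6.86 ± 0.818) and CDKN2D (4.31 ± 0.905). The ranges of CDKN2C and CDKN1C overlapped, and no other neighbours in this order did. In senescent cells with DMSO the order became CDKN1A (1004 ± 75.3), CDKN2A (163 ± 11.8), CDKN2B (58.8 ± 4.36), CDKN2D (10.7 ± 1.50), CDKN1B (5.64 ± 1.31), CDKN1C (1.89 ± 0.388) and CDKN2C (0.779 ± 0.0533), with no overlap between neighbours. CDKN2B thus moved from the sixth place to the third, and CDKN2C from the fourth to the last.

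With IMP1088 senescent cells kept CDKN1A (623 ± 59.5 CPM per kb), CDKN2A (103 ± 2.90) and CDKN2B (27.5 ± 0.985) in the first places, followed by CDKN1B (9.81 ± 0.842). CDKN2D (6.99 ± 1.22) and CDKN2C (6.64 ± 1.26) overlapped, and CDKN1C was last (4.31 ± 0.875). With DDD86481 the order of the 7 was the same, and CDKN2C and CDKN1C overlapped. CDKN1A made up 55.4% ± 5.56 of the summed per-kb level of the 7 genes in control cells with DMSO and 80.6% ± 0.577 in senescent cells with DMSO. With NMTi in senescent cells its share was 79.6% ± 1.46 (IMP1088) and 78.5% ± 3.80 (DDD86481). The CIP/KIP sum was 216 ± 16.5 CPM per kb in control and 1012 ± 73.6 in senescent DMSO cells, and 637 ± 57.9 and 672 ± 52.6 in senescent cells with IMP1088 and DDD86481. The INK4 sum was 106 ± 24.1 and 233 ± 11.9 in control and senescent DMSO cells, and 145 ± 3.98 and 163 ± 22.2 in senescent cells with the 2 compounds. In control cells with NMTi the INK4 sum was 72.4 ± 4.79 and 71.4 ± 2.32.

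**Figure D4:**
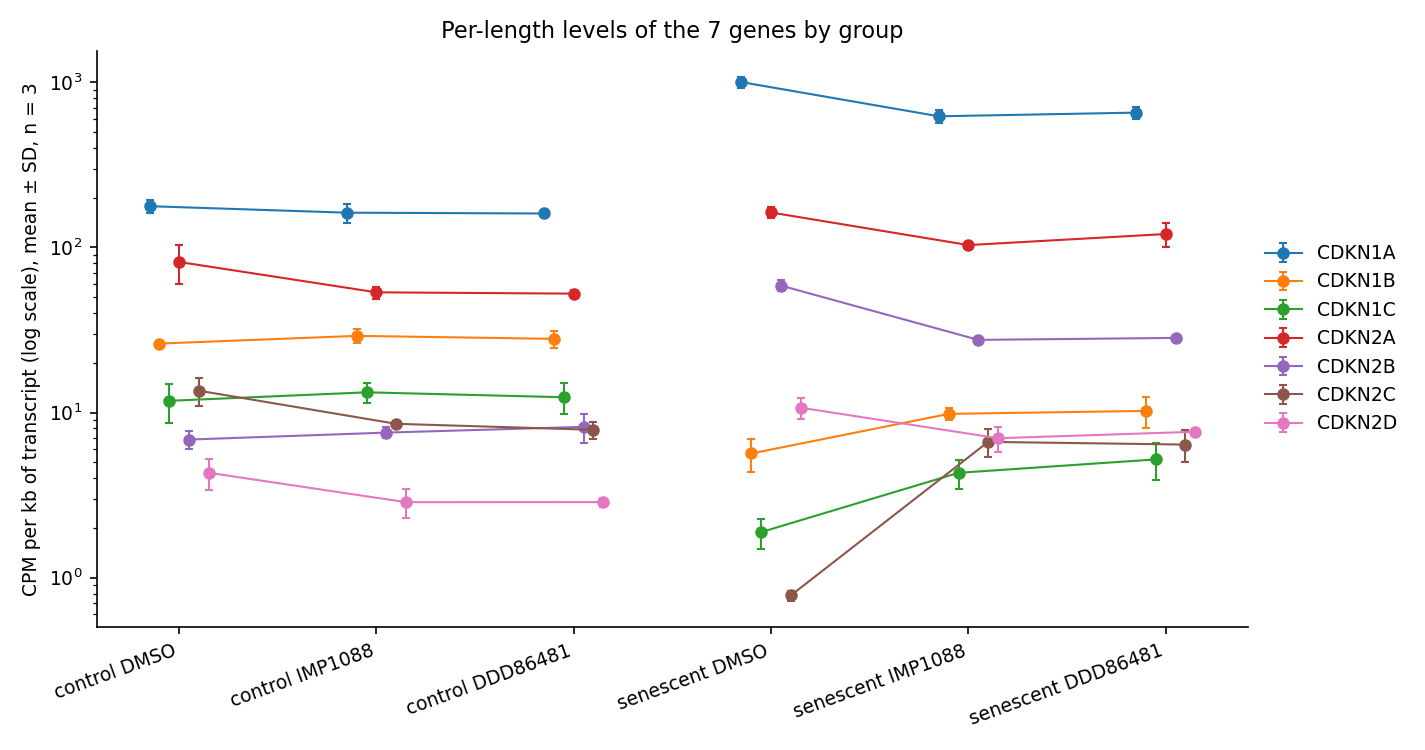
CPM per kb of canonical transcript (log scale) for the 7 genes in the 6 groups, mean ± SD of 3 libraries, with lines joining the groups of 1 cell state. CDKN1A is highest in every group, from 161 with DDD86481 in control cells to 1004 in senescent DMSO cells, and CDKN2C is lowest in senescent DMSO cells (0.779) but not in senescent cells with NMTi.

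Genes of the pathway around the inhibitors were read from lists. In senescence with DMSO 5 of 13 genes for CDKs and cyclins rose and 7 fell. CDK1, the mitotic kinase, was at 1 to 6 counts in senescent libraries (log2 fold change -6.20 ± 0.36), and CCNA1, the germline A-type cyclin, was at or below the floor in control libraries and at least 22.8-fold higher in senescent ones. All 14 genes of DNA replication and nucleotide synthesis fell, among them TK1, the thymidine kinase (-5.84 ± 0.28, at 3 to 8 counts), and CDC6, a licensing factor (-3.01 ± 0.21). Of 18 genes for RB and E2F proteins and their partners 4 rose and 9 fell. E2F8, a repressor E2F, had no read in the senescent libraries and was at least 7.38-fold lower, and MYBL2, a cell cycle transcription factor, went from 309 to 358 counts in control libraries to 1 to 4 counts. For all genes tested, 32.5% rose and 36% fell, with a median log2 fold change of -0.05.

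With IMP1088 in senescent cells 8 of the 14 replication genes rose and 1 fell, and with DDD86481 6 rose and 1 fell, while 20.6% and 20.1% of all genes rose. CDC6 rose by 2.40 ± 0.22 and 2.07 ± 0.22, and TK1 by 2.38 ± 0.37 and 2.20 ± 0.38. Among CDKs and cyclins 4 rose and 5 fell with IMP1088, and 2 rose and 4 fell with DDD86481. The IMP1088 count of 9 fell to 5 without senescent IMP1088 replicate 1 or 2 or senescent DMSO replicate 2. CCNA1 rose by 1.71 ± 0.23 and 1.75 ± 0.23, and CCNE2 had 0 to 5 counts with DMSO, 8 in each library with IMP1088 (adjusted p = 0.0373) and 3 to 7 with DDD86481 (adjusted p = 0.266), and its call with IMP1088 was lost in 5 of 6 fits that left out 1 library. CDK1 was at or below the floor in all 6 senescent NMTi libraries. In the RB and E2F list 5 rose and 3 fell with IMP1088, and 5 rose and 2 fell with DDD86481, led by LIN37 (1.04 ± 0.15 and 1.09 ± 0.15) and LIN52 (0.78 ± 0.13 and 0.75 ± 0.13), subunits of the DREAM complex.

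In control cells 11 of the 14 replication genes fell with each compound and none rose, where 17.4% and 18.7% of all genes fell. RRM2, a ribonucleotide reductase subunit, fell by 2.81 ± 0.16 with IMP1088 and by 2.90 ± 0.16 with DDD86481, and TK1 by 2.34 ± 0.19 and 2.59 ± 0.20. Of the CDKs and cyclins 9 fell with IMP1088 and 8 with DDD86481, and 1 rose with each. CDK1 fell by 2.67 ± 0.24 and 2.80 ± 0.24, and CCNA2, the S-phase cyclin, by 2.61 ± 0.19 and 2.57 ± 0.19. In the RB and E2F list 6 fell and 3 rose with IMP1088, and 8 fell and 3 rose with DDD86481, with MYBL2 at -2.92 ± 0.21 and -3.25 ± 0.22 while E2F8 went from 28 to 39 counts to 2 to 6 and 2 to 8 counts. Of the inhibitors, CDKN2A, CDKN2C and CDKN2D passed as lower in both comparisons, and CDKN1A, CDKN1B, CDKN1C and CDKN2B passed in neither.

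For regulators of the inhibitors, and genes beside them, the shares called are set beside those of all genes. In control cells several differed from those of all genes. The shares that rose in the Polycomb, ETS and ID list and the TGF-beta list, and that fell in the turnover and neighbour lists, were larger. The lists hold few genes, and some of these counts depended on the fit. With only the groups compared, called turnover genes went from 8 to 5 with DDD86481. Called neighbours went from 6 to 3 with IMP1088 and from 5 to 2 with DDD86481 in such fits. In senescence 32.5% of all genes rose and 36% fell. With NMTi in senescent cells 20.6% rose and 23.9% fell (IMP1088) or 20.1% and 23.1% (DDD86481), and in control cells 16.3% and 17.4% or 17.8% and 18.7%. Among 22 Polycomb, ETS and ID genes, which include repressors and activators of CDKN2A, 6 rose (27.3%) and 10 fell (45.5%) in senescence. ID2 fell by 3.73 ± 0.26, and ID4 went from 31 to 47 counts in control libraries to 1 to 4 counts. With NMTi in senescent cells 4 rose (18.2%) and 5 fell (22.7%) with IMP1088 and 6 rose and 6 fell (27.3% each) with DDD86481, with CBX2 at -1.98 ± 0.33 and -1.50 ± 0.31 and ID1 at -1.37 ± 0.30 and -1.25 ± 0.30. In control cells 7 rose (31.8%) and 3 fell (13.6%) with IMP1088, and 7 rose (31.8%) and 2 fell (9.09%) with DDD86481, led by KDM6B, the H3K27 demethylase (1.13 ± 0.18 and 1.28 ± 0.18), and JUNB (1.07 ± 0.17 and 1.03 ± 0.17).

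In a list of 18 TGF-beta, FOXO and MYC-network genes, which includes upstream factors of CDKN2B and CDKN1B, 6 rose (33.3%) and 9 fell (50%) in senescence, with KLF4 at -4.41 ± 0.17 and TGFB3 at -4.07 ± 0.24. With each compound in senescent cells 4 rose and 4 fell (22.2% each), near the shares of all genes. KLF4 rose by 1.07 ± 0.21 and 1.09 ± 0.21, and SMAD3 fell by 0.95 ± 0.13 and 0.88 ± 0.13. In control cells 6 rose (33.3%) and 2 fell (11.1%) with IMP1088 and 7 rose (38.9%) and 2 fell (11.1%) with DDD86481, with KLF6 at -0.78 ± 0.10 and -0.74 ± 0.10 and MXD1 at 0.70 ± 0.18 and 0.87 ± 0.18.

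Of 14 genes that act in the turnover of p21, p27 and p57, 4 rose (28.6%) and 6 fell (42.9%) in senescence, beside 32.5% and 36% of all genes. DTL, the adaptor that marks p21 for degradation in S phase, was at -3.36 ± 0.25 and CDC20 at -2.71 ± 0.26. In senescent cells 3 rose (21.4%) and 2 fell (14.3%) with IMP1088, and 2 rose (14.3%) and 3 fell (21.4%) with DDD86481. SKP2, the adaptor for p27, fell by 0.72 ± 0.17 and 0.94 ± 0.17, and DTL was at 0.82 ± 0.29 (adjusted p = 0.0282) and 0.74 ± 0.30 (adjusted p = 0.0513). In control cells 6 fell (42.9%) and 1 rose (7.14%) with IMP1088 and 7 fell (50%) and 1 rose (7.14%) with DDD86481, beside 17.4% and 18.7% of all genes that fell. CDC20 fell by 3.40 ± 0.27 and 3.10 ± 0.26 and DTL by 1.81 ± 0.21 and 1.93 ± 0.21.

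Of 20 genes that flank the members, 15 were tested, and 7 rose (46.7%) and 5 fell (33.3%) in senescence. At the imprinted CDKN1C locus PHLDA2 rose by 2.86 ± 0.16, and KCNQ1OT1 fell by 3.27 ± 0.48, to 1 to 6 counts. With NMTi in senescent cells 3 neighbours rose (20%) with each compound and 5 (33.3%, IMP1088) or 6 (40%, DDD86481) fell, with DMRTA1 at 1.52 ± 0.29 and 0.96 ± 0.30 and IFNE at -1.31 ± 0.39 and -0.26 ± 0.34 (adjusted p = 0.562). In control cells 1 neighbour rose (6.67%) with each and 5 (33.3%) and 4 (26.7%) fell. KCNQ1OT1 was the riser (0.87 ± 0.30 with each), and IFNE had 2 to 7 counts with DMSO and 0 to 1 with IMP1088, at least 1.13-fold lower.

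**Figure D5:**
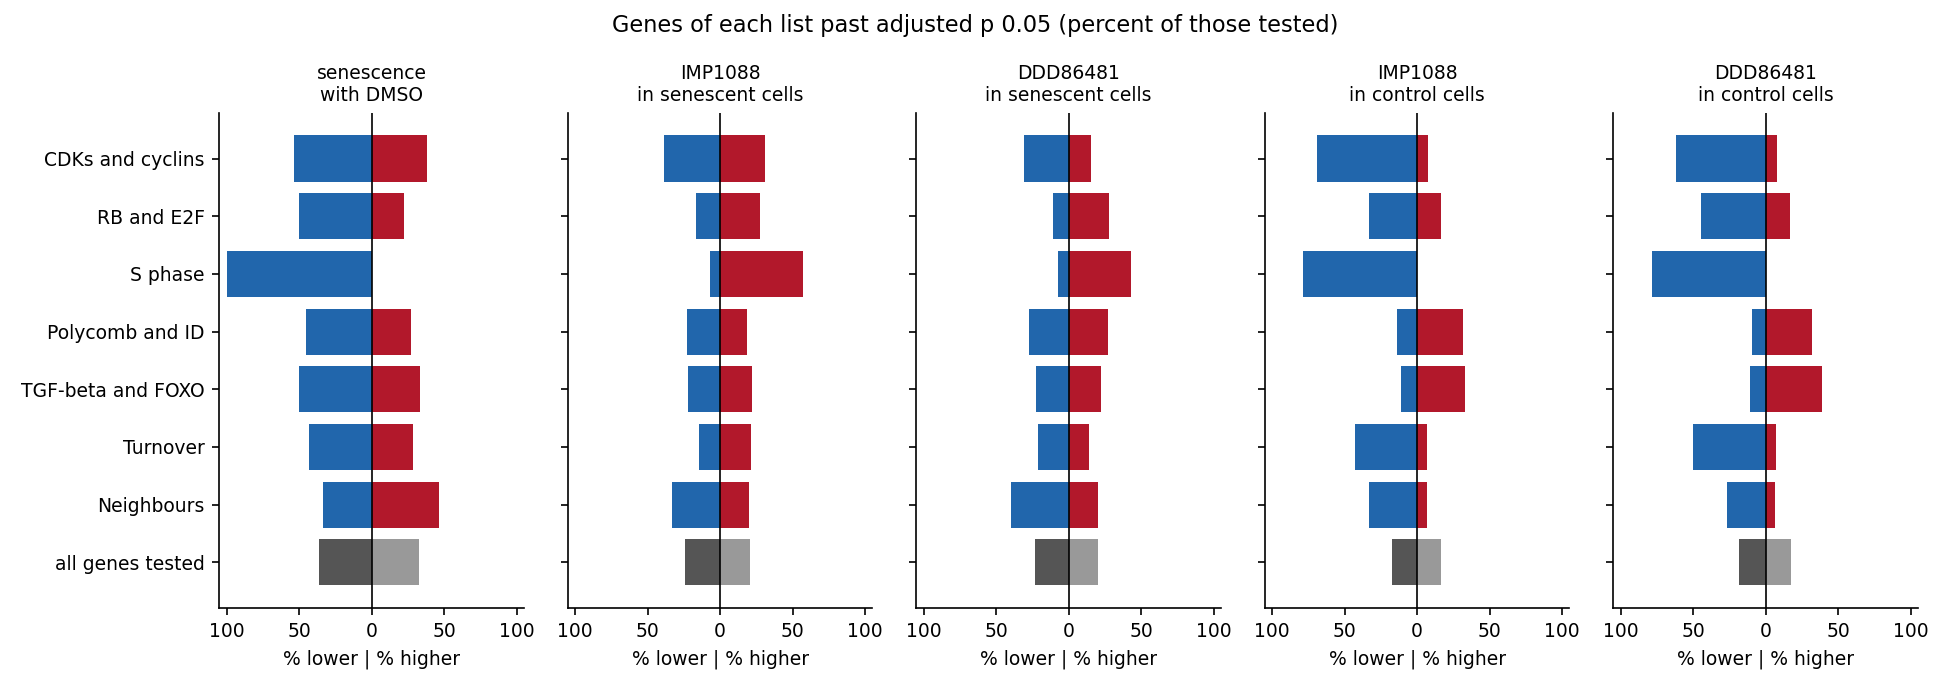
Percent of the tested genes of each list that passed an adjusted p of 0.05, lower to the left and higher to the right, in 5 comparisons, with all 14341 genes in grey. Replication genes (S phase) are lower without exception in senescence (14 of 14) and more often higher than lower with NMTi in senescent cells (8 higher and 1 lower with IMP1088, 6 higher and 1 lower with DDD86481).

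The genes with the pattern most like each member were found by Pearson's r of log2 CPM over the 18 libraries. These points share the 6 groups, so r mostly restates group means and is given as a description. For CDKN1A they were LPXN (0.995), AMPD3 and ADGRE5 (0.993 each). For CDKN2B they were SLC4A7 (0.997), PREX1 (0.994) and TMX4 (0.991), of which SLC4A7 went from a mean of 26.0 CPM in control to 395 CPM in senescent DMSO cells. CDKN2C was closest to CPE (0.968), THOC1 (0.960) and TCF19 (0.954), the last with 17.0 CPM in control DMSO, 1.56 in senescent DMSO and 8.68 in senescent IMP1088 cells. CDKN1B was closest to FAM161A (0.990), TIGD1 (0.986) and FIGN (0.984), and CDKN1C to CTSF (0.972), FLT3LG (0.969) and CPZ (0.962). For CDKN2A they were STOML2 (0.993), DRAP1 (0.991) and TALDO1 (0.990), and for CDKN2D PGAM1 (0.982), TPI1 (0.978) and SELENOT (0.976).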

How the data were processed

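RNA of 18 libraries was analysed in 6 groups of 3, assigned from the labels. The authors deposited 1 table of raw counts per gene symbol. The study's methods give directional poly(A) libraries read as single 75-base reads and aligned to hg19, whereas the submitters' processing notes name hg38, DRAGEN, STAR 2.7.8a and DESeq2 1.32.0. The counting tool's strand setting is not given in the sources used here, so counts from overlapping exons on opposite strands are uncertain. The DDD86481 columns are named PCLX001, and the labels give both names.

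filterByExpr in edgeR 4.0.16 kept 14341 genes, and 6836 rows had no count. Counts were scaled by TMM to CPM. The test was the quasi-likelihood F test of edgeR, with all libraries in 1 model, two-sided, with Benjamini-Hochberg adjustment over all genes tested. SE is the log2 fold change over the root of the F statistic. CPM per kb used the canonical transcript length of GENCODE on GRCh37. A floor of 3 counts corresponds to 0.121 to 0.187 CPM and covers counting error only. The test was checked on simulated counts. Alternatives were DESeq2 1.42.0, RLE and upper quartile scaling, no filter, a replicate block, a fit of only the groups compared, and each library left out. Between replicates the chi-square per gene was 5.09 to 101.2, and none was taken for a duplicate. Named list genes were the 2 called genes of each list with the largest change in senescence and with IMP1088 in senescent and in control cells, with the DDD86481 value beside them, and likeness was ranked over all tested genes. CDKN2B-AS1 was named for its overlap with CDKN2A, after its values were seen. One list of regulators and 1 sequence are not reported here. The members and lists were chosen with earlier results of these data known.

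Same-numbered libraries deviated together from the means of their groups, with correlations above 0.1 in all 3 pairs, for control DMSO with control IMP1088 (0.394, 0.123 and 0.231), control IMP1088 with control DDD86481 (0.101, 0.270 and 0.129) and senescent IMP1088 with senescent DDD86481 (0.117, 0.126 and 0.119), and in no other pair of groups. The labels name no shared batch, so this pairing rests on the correlations.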

Additional observations from a re-analysis of the deposited data

Results flagged for a closer look

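The response to NMTi differed between senescent and control cells, by the interaction test, for 5 of the 7 genes with each compound, where 26.2% of all genes passed with IMP1088 and 30.3% with DDD86481. On the log2 scale, the senescent-cell response less the control-cell response was 3.75 for CDKN2C, -1.23 for CDKN2B, 1.02 for CDKN1C, 0.65 for CDKN1B and -0.56 for CDKN1A with IMP1088. With DDD86481 it was 3.82 for CDKN2C, -1.31 for CDKN2B, 1.39 for CDKN1C, 0.77 for CDKN1B and -0.47 for CDKN1A. The CDKN2C and CDKN2B values passed in every alternative run, while those of CDKN1A with each compound, CDKN1B with IMP1088 and CDKN1C with IMP1088 were lost without some single libraries. Control DMSO replicate 3 stood apart from its group, and without it the CDKN1C value with IMP1088 was 0.80 (adjusted p = 0.0586).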

How the results depend on the processing

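Over 63 member results, 840 alternative values were computed, of which 784 kept direction and call, 33 lost the call, 5 gained one and 18 changed sign. The sign changes concerned values near 0 that did not pass. Under upper quartile scaling, which moved the median of all genes in senescence from -0.05 to -0.21, the interaction with IMP1088 was 0.00966 for CDKN2A and 0.0197 for CDKN2D. With 1 library left out, the interaction with IMP1088 ran from -0.27 to 0.13 for CDKN2A and from -0.18 to 0.15 for CDKN2D, and that with DDD86481 from -0.0208 to 0.39 and from -0.0452 to 0.29, while CDKN1C with DDD86481 in control cells ran from -0.11 to 0.29. The number of members passing the interaction with IMP1088 ran from 3 to 5. In fits of only the groups compared, 2677 of all genes passed with IMP1088 in control cells and 2820 with DDD86481, against 4829 and 5242. In senescent cells such fits gave 7947 genes with IMP1088, against 6374, and 6155 with DDD86481, against 6189. The replicate block changed no call of a member. With it CDKN2C was at 3.08 (adjusted p = 3.30e-08) with IMP1088 in senescent cells and the interaction of CDKN1A with IMP1088 kept its call. Of 840 values for named genes of the lists, 20 lost the call and 5 gained one, and 12 of 420 list counts moved by over 1.5 times. In fits of only the groups compared, the called RB and E2F genes went from 11 to 7 and the turnover genes from 8 to 5 with DDD86481 in control cells, and the neighbours from 6 to 3 (IMP1088) and from 5 to 2 (DDD86481). With 1 library left out, CDKs and cyclins with IMP1088 in senescent cells went from 9 to 5 (3 libraries), TGF-beta and FOXO genes with IMP1088 in control cells from 8 to 5 (control IMP1088 replicate 1), and neighbours in control cells from 6 to 3 with IMP1088 (control IMP1088 replicate 2) and from 5 to 3 with DDD86481 (control DMSO replicate 3, control DDD86481 replicate 1 or 3). CCNE2 with IMP1088 in senescent cells lost its call in 5 of 6 fits with a library left out and DTL in 3, and IFNE in control cells lost its call in a fit of only the groups compared and without replicate 2 of control DMSO or of control IMP1088. Depth limits CDKN2C most, at 13 reads in each senescent DMSO library.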

Other observations

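Within the 9 control libraries, log2 CPM of CDKN2A, CDKN2C and CDKN2D varied together, with Pearson's r of 0.957 for CDKN2A with CDKN2C, 0.946 for CDKN2A with CDKN2D and 0.904 for CDKN2C with CDKN2D. Within the 9 senescent libraries CDKN2A and CDKN2C had r of -0.837 and CDKN2C and CDKN2D -0.832, and CDKN2A with CDKN2D had 0.817. CDKN2A and CDKN2B, the neighbours on chromosome 9, had r of -0.699 in control and 0.874 in senescent libraries. Each set of 9 holds 3 treatments of 3 libraries, so these values mostly restate the responses to NMTi and are given as a description. At the same locus MTAP, which flanks CDKN2A on the other side and was named after its values were seen, rose by 1.04 ± 0.093 in senescence on the log2 scale (adjusted p = 4.39e-09, edgeR's quasi-likelihood test). It fell in senescent cells by 0.70 ± 0.093 with IMP1088 and by 0.66 ± 0.093 with DDD86481. In control cells MTAP was at -0.37 ± 0.094 with IMP1088 (adjusted p = 0.00536) and at -0.17 ± 0.094 with DDD86481 (adjusted p = 0.168).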
